A study of Sus scrofa with 8 samples.

Results

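The genes described are 8 fatty acid desaturases and elongases of the pig liver: FADS1, FADS2, FADS3, ELOVL1, ELOVL2, ELOVL3, ELOVL5 and ELOVL7. They were taken by gene symbol from the 18103 genes listed, and each had 1 entry. Of the 8, 7 passed the filter on low values described below, and ELOVL3 did not. Hepatic RNA came from male Landrace x Large White pigs and was sequenced in 8 libraries, each a pool of 2 pigs. The Control libraries (pools 1 to 4) represented the initial state, in healthy animals of 4 months whose liver was sampled by biopsy. The Steatosis libraries (pools 1 to 4) represented, per a figure legend of the study, the same animals at 6 months. These samples followed 2 months on a diet rich in saturated fat, fructose, cholesterol and cholate and poor in methionine and choline. Their liver was taken after euthanasia. Which pigs of the experiment entered each pool is not stated. Diet, age and way of sampling changed together between the groups and cannot be told apart.

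Mammals take linoleic and alpha-linolenic acid from the diet and lengthen and desaturate them in the endoplasmic reticulum, and the liver is a main site of this work. FADS2 introduces the first double bond, ELOVL5 adds carbons, and FADS1 introduces the double bond that yields arachidonic and eicosapentaenoic acid. ELOVL2 carries the longer polyunsaturated chains on towards docosahexaenoic acid. The remaining genes are relatives with other substrates: FADS3 desaturates sphingoid bases, and ELOVL1, ELOVL3 and ELOVL7 extend mainly saturated and monounsaturated chains. The name of polyunsaturated enzymes thus holds, by known function, for FADS1, FADS2, ELOVL2 and ELOVL5.

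Expression was deposited as FPKM, the fragments assigned to a gene per kilobase of transcript and relative to all fragments of the library, which allows levels to be set side by side between genes. A gene entered the test when 4 or more of the 8 libraries held it at 0.3 FPKM or above, which left 13175 genes, compared on log2(FPKM + 0.1) with limma, a linear model with a spread estimated across all genes. The added 0.1 understates changes of genes near that level. The fold changes below are Steatosis minus Control on this log2 scale, each with its standard error (SE), and adjusted p values cover all 13175 genes. Over all these genes the median fold change was 0.25, so a gene at that value stood level with the middle of the table.

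The hepatocyte markers were high in every library, with summed levels of 10 genes of 69070 to 103630 FPKM in Control and 61318 to 71069 FPKM in Steatosis. One library stood apart: in Control pool 1, 9 listed genes of skeletal muscle summed to 2942 FPKM and 9 of stomach mucosa to 2245 FPKM, against at most 22.2 and 40.8 FPKM in the other 7 libraries. Calls that changed without Control pool 1 are given with and without it. In genes close to 1 kb in length the lowest values above 0, those under a fixed low cutoff, were at a median of 0.05 to 0.06 FPKM in each library. These medians rest on 4 to 15 values a library, and the cutoff limits how far they could differ between libraries. In each library 15934 to 16588 genes were above 0.

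FADS2 and FADS1 were the most expressed of these genes in both groups, followed by ELOVL5, ELOVL2 and ELOVL1. Over both groups the mean of FADS2 lay at the percentile 97.2 of all listed genes and that of FADS1 at 96.9, with ELOVL5 at 94.6, ELOVL2 at 90.2 and ELOVL1 at 80.2. ELOVL7 and FADS3 were near 1 FPKM, at the percentiles 38.7 and 37.7. The order by mean FPKM was the same in Control and in Steatosis. FADS2 and FADS1 did not separate beyond their spread: FADS2 was the higher of the pair in 3 of 4 libraries of each group. The ranges of FADS1 and ELOVL5 overlapped in Control, but not in Steatosis, and FADS1 was the higher in all 4 libraries of each group. ELOVL5, ELOVL2 and ELOVL1 had ranges that did not overlap with their neighbours below in either group. ELOVL7 and FADS3 overlapped in both.

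FADS2, the enzyme of the first desaturation, was the only one of the 7 tested genes past an adjusted p of 0.05, a limit that 26.7% of all tested genes passed as higher in Steatosis. In Control it measured 69.8, 75.6, 123 and 120 FPKM in pools 1 to 4, and in Steatosis 143, 171, 169 and 115 FPKM. Pools 1 to 3 were higher in Steatosis than the Control pool of the same number and pool 4 was slightly lower, so that the groups overlapped. The mean went from 97.2 ± 28.4 to 150 ± 26.6 FPKM (SD, n = 4), a ratio of 1.54. The log2 fold change was 0.65 (SE 0.21, 95% interval 0.18 to 1.12), with an adjusted p of 0.043 from limma. For this gene alone, exact permutation of the 8 libraries (two-sided) gave p = 0.0857, where the smallest p that 4 against 4 libraries allow is 0.0286. The call was close to its limit and was lost in 9 of 16 alternative fits, with adjusted p from 0.0261 to 0.314 over the 16. Without Control pool 1 the fold change was 0.51 with an adjusted p of 0.0879, and the call was also lost without Control pool 2 (0.0998) or without Steatosis pool 1 (0.0761), 2 (0.109) or 3 (0.102).

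FADS1, which makes arachidonic acid, did not pass the test. It measured 67.7, 81.0, 102 and 118 FPKM in Control pools 1 to 4 and 152, 132, 100.4 and 88.9 FPKM in Steatosis pools 1 to 4. The pools changed in opposite directions: pool 1 was higher in Steatosis by 1.17 on the log2 scale and pool 2 by 0.70, whereas pool 3 differed by -0.02 and pool 4 by -0.41. The pool with the lowest level in Control had the highest in Steatosis, and the pool with the highest had the lowest. Means were 92.1 ± 22.3 and 118 ± 28.9 FPKM (SD, n = 4), with a fold change of 0.36 (SE 0.21, 95% interval -0.10 to 0.82) and an adjusted p of 0.217. The interval includes both no difference and that of FADS2. With 1 library left out the estimate ran from 0.22 (without Control pool 1) to 0.49 (without Control pool 4). The FPKM of FADS1 covers the RefSeq transcript together with 1 new transcript assembled by the authors.

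FADS3, which acts on sphingoid bases, was expressed at a low level and had groups that did not overlap. Control pools measured 1.03, 1.05, 0.93 and 0.67 FPKM, and Steatosis pools 1.15, 1.11, 1.31 and 1.15 FPKM. All 4 pools were higher in Steatosis, by 0.15, 0.07, 0.45 and 0.70 on the log2 scale. The fold change of 0.34 (SE 0.17, 95% interval -0.04 to 0.73) had an adjusted p of 0.162 from limma. The exact permutation test of FADS3 alone gave its smallest possible value, 0.0286, without adjustment for the number of genes. A separation of this kind was common: 29.6% of all tested genes had every Steatosis library above every Control library, and 2.53% had every one below, as none of the 7 did.

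**Figure D1:**
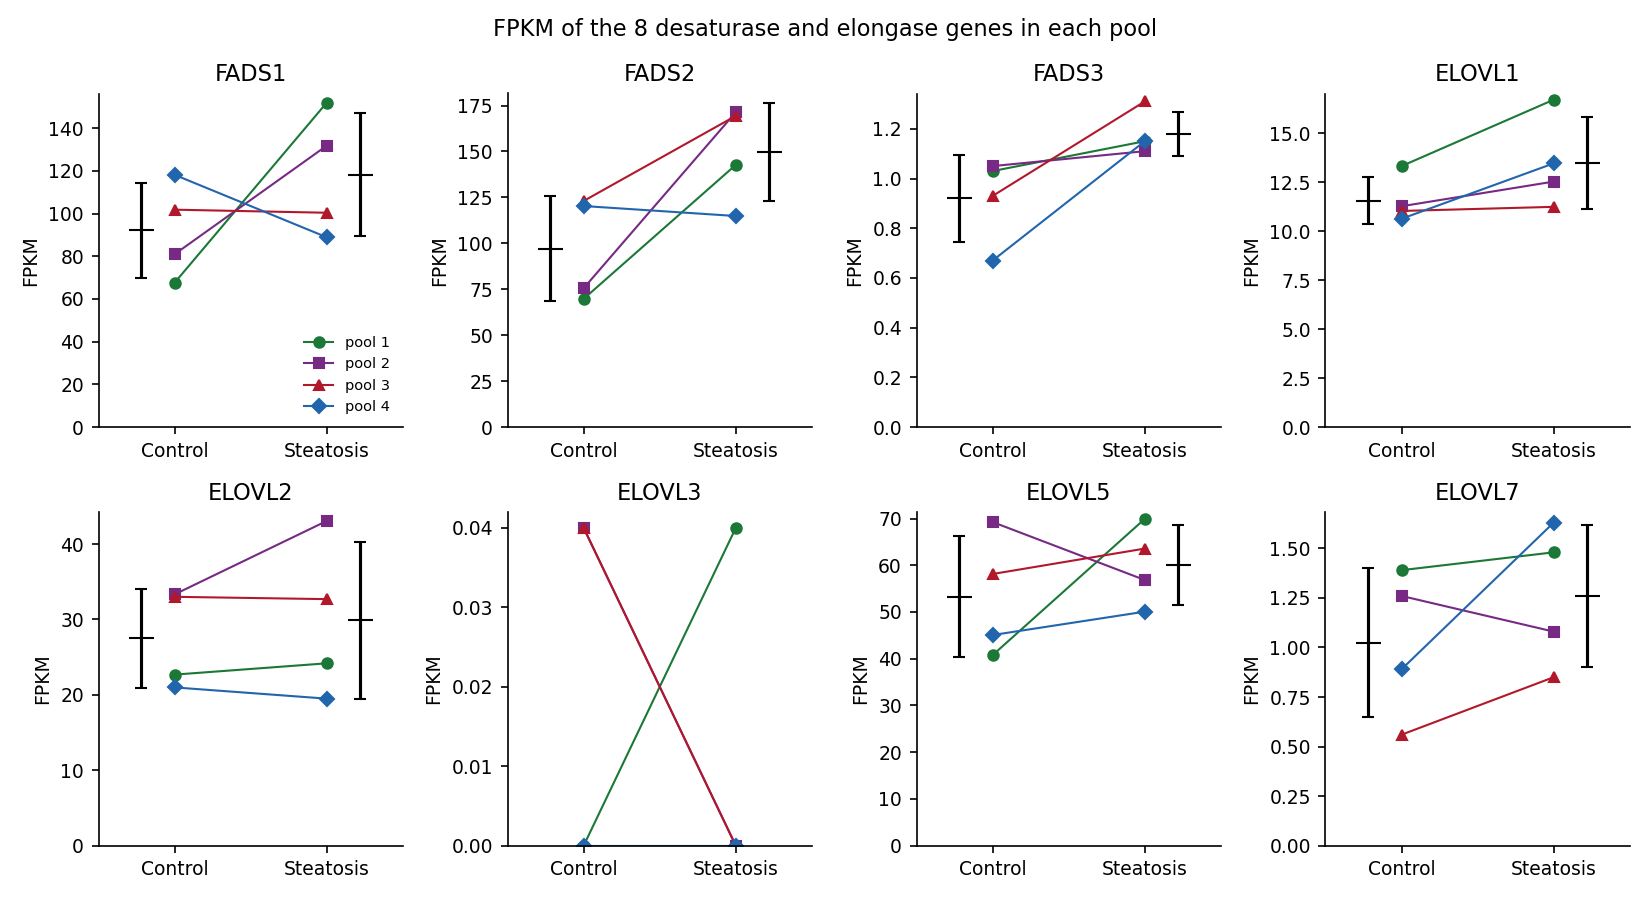
FPKM (vertical axes, each from 0) of the 8 genes in Control and Steatosis, where a line joins the pools of the same number and black bars give the mean ± SD of 4 libraries. FADS1 lines cross, from 67.7 to 152 FPKM in pool 1 and from 118 to 88.9 FPKM in pool 4, while ELOVL2 lines stay in nearly the same order. ELOVL3 has no bars, and its points of 0 and 0.04 FPKM lie over each other.

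ELOVL5, the elongase that acts between the FADS2 and FADS1 steps, did not pass the test. It measured 40.8, 69.3, 58.1 and 45.1 FPKM in Control and 69.9, 56.9, 63.6 and 50.1 FPKM in Steatosis. The groups overlapped, with 3 of 4 pools higher in Steatosis and pool 2 lower. Its means were 53.3 ± 12.9 and 60.1 ± 8.56 FPKM (SD, n = 4), and the fold change was 0.19 (SE 0.17, 95% interval -0.19 to 0.58, adjusted p = 0.421). With 1 library left out it ran from 0.08 (without Control pool 1) to 0.33 (without Control pool 2).

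ELOVL2, the elongase of the longest polyunsaturated chains, had the smallest difference between groups in the FPKM as deposited. After scaling by upper quartile or median ratio its estimate was negative and further from 0 than those of ELOVL1 and ELOVL5. Control pools held 22.7, 33.3, 33.0 and 21.0 FPKM and Steatosis pools 24.2, 43.1, 32.7 and 19.5 FPKM. Pools 2 and 3 were high and pools 1 and 4 low in both groups. Its fold change was 0.09 (SE 0.25, 95% interval -0.47 to 0.64) with an adjusted p of 0.817.

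ELOVL1 supplies very long saturated and monounsaturated chains for sphingolipids. It measured 13.3, 11.3, 11.04 and 10.6 FPKM in Control and 16.7, 12.5, 11.3 and 13.5 FPKM in Steatosis. All 4 pools were higher in Steatosis, although the groups overlapped. The fold change was 0.21 (SE 0.13, adjusted p = 0.261), below the median of 0.25 over all tested genes. It ran from 0.10 (without Steatosis pool 1) to 0.29 (without Steatosis pool 3) with 1 library left out. ELOVL7 measured 1.39, 1.26, 0.56 and 0.89 FPKM in Control and 1.48, 1.08, 0.85 and 1.63 FPKM in Steatosis. The groups overlapped widely, and its fold change of 0.30 had an SE of 0.29 and an adjusted p of 0.456. Without Control pool 3 it was 0.07 and without Steatosis pool 3 it was 0.46.

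ELOVL3 was listed at 0 or 0.04 FPKM throughout. It was at 0.04 FPKM in Control pools 2 and 3 and in Steatosis pool 1, and at 0 in the other 5 libraries. No fold change is given for it, since a value of 0.04 FPKM lies at the level of the lowest values above 0 in these libraries.

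Of the 7 genes that passed the filter, 1 (14.3%) was past an adjusted p of 0.05 and higher in Steatosis, against 26.7% of all genes tested. None was past that limit and lower, against 2.28%. At the stricter limits of the study (a log2 fold change of more than 1 in size and an adjusted p below 0.01), 0 of the 7 were called higher, against 6.01% of all genes, and 0 were called lower, against 0.334%. At an unadjusted p under 0.05, FADS2 was again the only 1 of the 7 to pass. The share of all genes higher at this looser limit was not counted and is at least the 26.7% above. The 7 estimates lay between 0.09 and 0.65, with a median of 0.30 beside the 0.25 of all genes. Directions depended on the scaling of libraries. When each library was scaled by its upper quartile, the median of all genes moved to 0.04. ELOVL1 (-0.00912) and ELOVL5 (-0.0274) then had estimates just under 0, and ELOVL2 one of -0.135. FADS2 then had a fold change of 0.43 (adjusted p = 0.217). Bulk RNA does not separate less RNA per cell from fewer cells of a type.

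**Figure D2:**
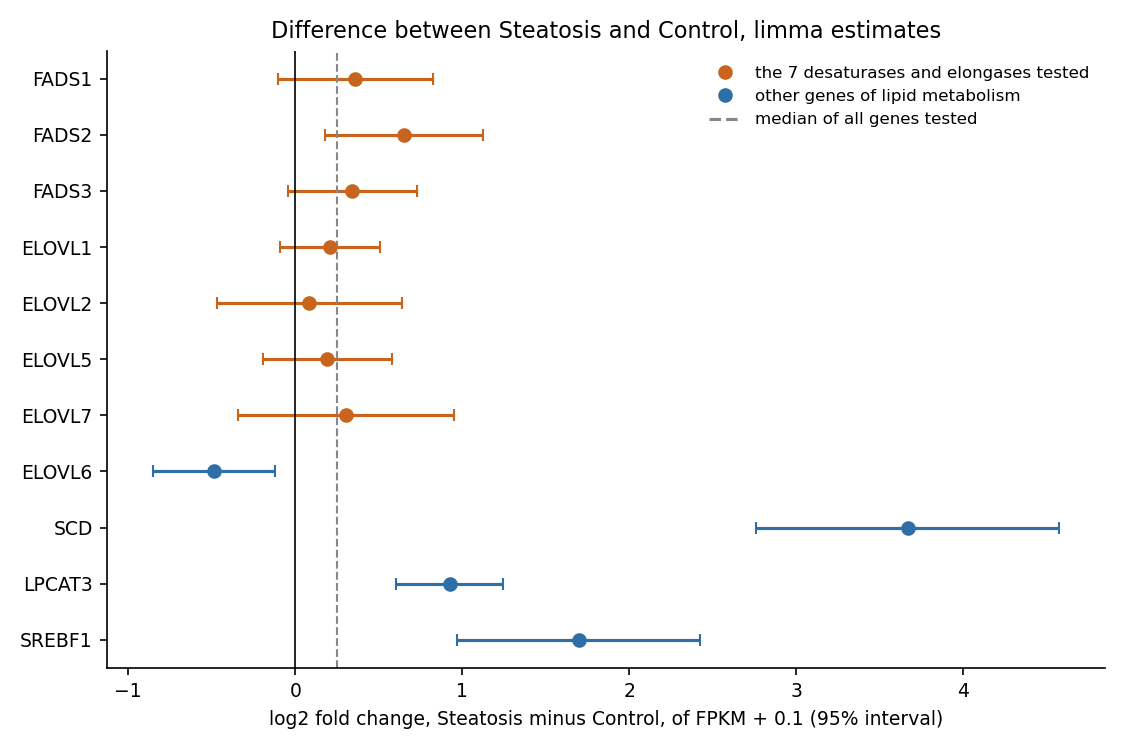
Log2 fold change (horizontal axis, Steatosis minus Control, of FPKM + 0.1) from limma with its 95% interval for the 7 tested desaturases and elongases (orange) and for ELOVL6, SCD, LPCAT3 and SREBF1 (blue). The dashed line is the median of all tested genes, 0.25, and the orange intervals all include it, while the intervals of the 4 blue genes do not. The 4 blue genes come from lists chosen with earlier results of these data known. Other genes of those lists, among them FASN and HSD17B12, had intervals that include 0.25.

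The libraries of a gene can differ by group, by pool number or by neither. The sum of squares of log2(FPKM + 0.1) over the 8 libraries was split into these components, and ELOVL2 and FADS1 lay at opposite ends. For ELOVL2, the pool number took 93.1% and the group 1.29%, and this share of the pool number was at the percentile 99.4 of all tested genes. For FADS1, the pool number took 0.123% and the group 25.5%, and 74.3% was left to neither. FADS2 and FADS3 had their largest share in the group, at 52.1% and 49.1%. ELOVL1 and ELOVL7 varied mostly with the pool number, at 62.2% and 67.6%, and ELOVL5 was divided between the pool number (35.9%) and the remainder (50.8%). The mean over all tested genes was 40.1% for group, 32.7% for pool number and 27.2% for the remainder. These shares are descriptions of 8 libraries and carry no test.

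**Figure D3:**
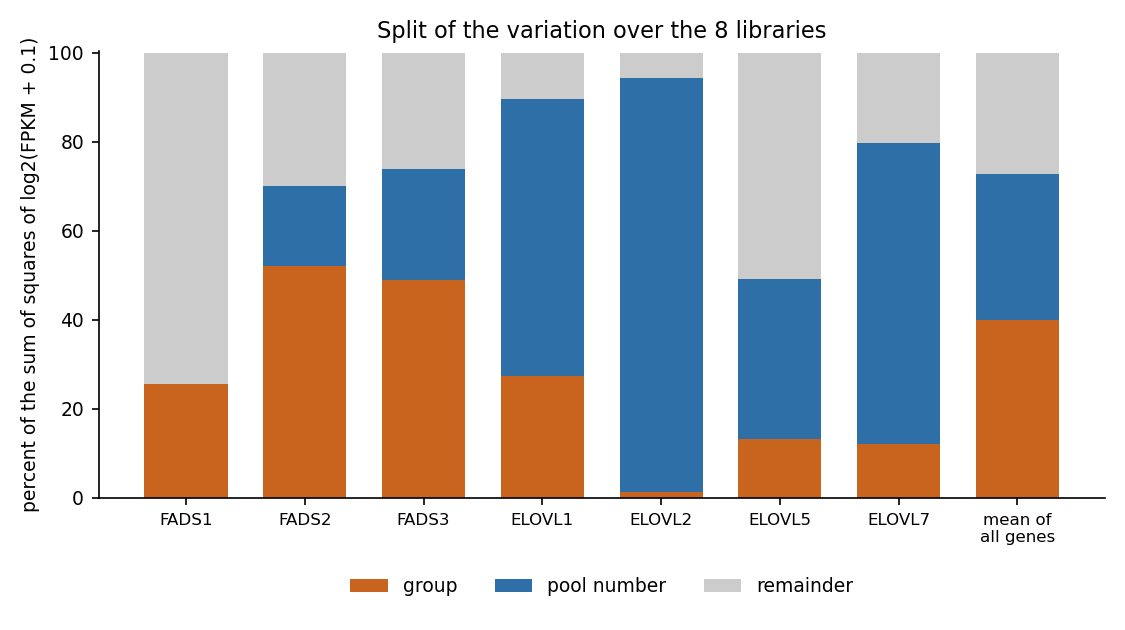
Percent of the sum of squares of log2(FPKM + 0.1) over the 8 libraries (vertical axis) attributed to group, to pool number and to the remainder, for the 7 tested genes and as the mean of all tested genes. The bar of ELOVL2 is almost all pool number (93.1%), and that of FADS1 is almost all remainder (74.3%) and group (25.5%).

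The saturated and monounsaturated branch shares the elongation and desaturation chemistry but acts on newly made palmitic and stearic acid. SCD, the desaturase that makes oleic acid, measured 9.15, 12.3, 6.12 and 3.25 FPKM in Control and 65.5, 116, 140 and 58.4 FPKM in Steatosis. The groups did not overlap, and the fold change was 3.67 (SE 0.41, adjusted p = 0.000266). ELOVL6, the elongase of palmitic acid, measured 91.6, 115, 102 and 114 FPKM in Control and 77.6, 99.0, 75.0 and 54.9 FPKM in Steatosis. All 4 pools were lower in Steatosis, with a fold change of -0.49 (SE 0.16) and an adjusted p of 0.0498. This call sat at its limit: of the 8 fits that left out 1 library, it held in 2, without Control pool 1 or without Steatosis pool 2, and the adjusted p in the others was at most 0.110. Under scaling by upper quartile the fold change was -0.71 (adjusted p = 0.0176).

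Ratios within a library do not depend on the scaling between libraries. The log2 ratio of SCD to FADS2 was -2.92, -2.61, -4.31 and -5.17 in Control pools and -1.12, -0.56, -0.27 and -0.97 in Steatosis pools. SCD was below FADS2 in every library, and the gap narrowed in all 4 pools by a mean of 3.02 (SE 0.63). The exact permutation p was 0.0286, the smallest that 4 against 4 libraries allow, or 0.114 after adjustment over the 4 ratios compared. At that floor neither p reflects the size of the difference.

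ELOVL6 to ELOVL5 went from a mean log2 ratio of 1.01 ± 0.29 to 0.33 ± 0.32 (SD, n = 4), a difference of -0.68 (SE 0.21, exact p = 0.0571, adjusted p = 0.114). Pools 1, 3 and 4 were lower and pool 2 was slightly higher. The ratio of FADS2 to FADS1 went from 0.06 ± 0.16 to 0.35 ± 0.35, a difference of 0.29 (SE 0.19, exact p = 0.229, adjusted p = 0.305), or 0.16 without Steatosis pool 3 and 0.44 without Steatosis pool 1. ELOVL2 to ELOVL5 differed by -0.11 (SE 0.26, exact p = 0.714, adjusted p = 0.714), with a wider spread in Steatosis (SD 0.50) than in Control (SD 0.14). That difference was -0.33 without Steatosis pool 2 and 0.05 without Steatosis pool 1.

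**Figure D4:**
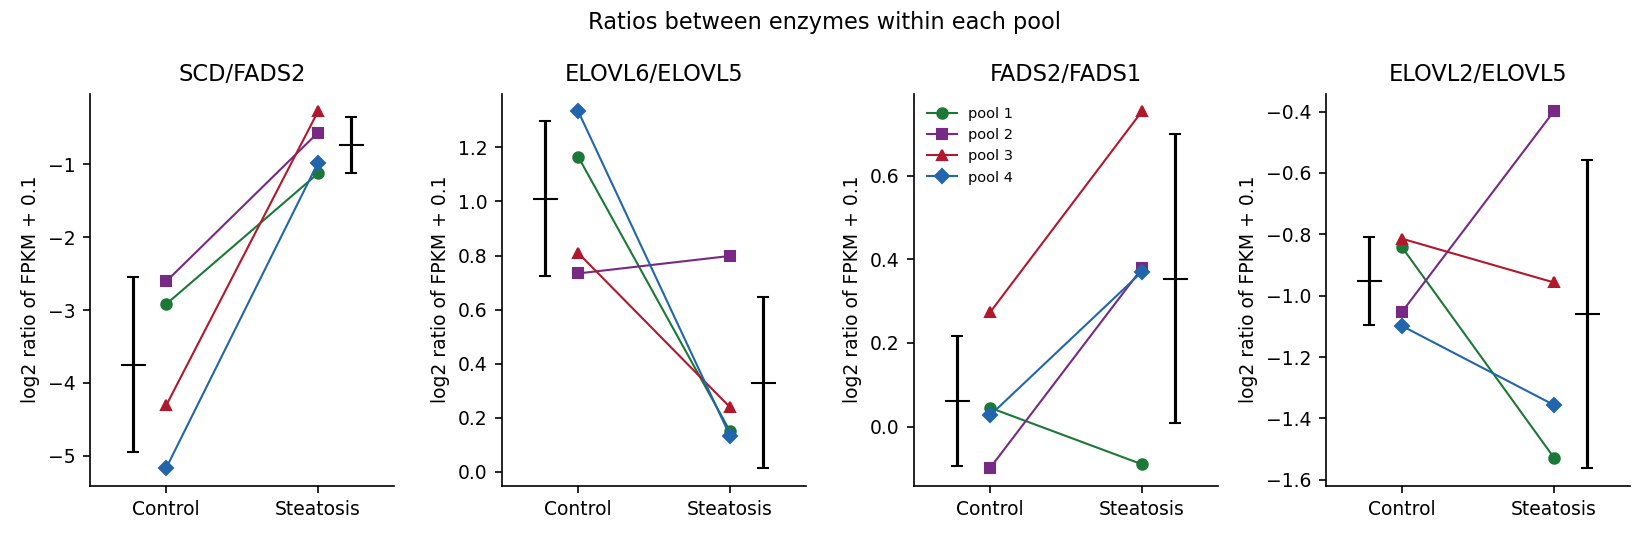
Log2 ratio of FPKM + 0.1 between enzymes (vertical axes, each with its own range) in Control and Steatosis, with lines joining pools of the same number and black bars for the mean ± SD of 4 libraries. SCD to FADS2 separates the groups, from at most -2.61 in Control to at least -1.12 in Steatosis, and the other 3 ratios overlap.

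Enzymes that work with the desaturases and elongases were taken from 7 lists, with 58 genes tested. Of these, 18 (31.0%) rose and 7 (12.1%) fell at an adjusted p of 0.05, against 26.7% and 2.28% of all genes. Scaling by the median ratio gave 8 higher and 14 lower in these lists, so the balance of directions rests on the scaling. With the pool number as a block, 18 were higher and 10 lower. The count lower was also 4 without Steatosis pool 1, 3 without Control pool 2 or 4, 2 without Steatosis pool 3 and 0 without Steatosis pool 4. The calls of HACD2, CYB5B, AGPAT3 and SREBF2 below held in 2 or 3 of the 8 fits that left out 1 library.

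An elongase adds its carbons in a cycle with a reductase, a dehydratase and a second reductase. Of the 6 partners tested, 3 rose and 1 fell, with a median fold change of 0.24. The dehydratase HACD4 rose from a mean of 0.728 to 2.64 FPKM (1.73, SE 0.14, adjusted p = 6.2e-05), from a low level. HACD3 rose from 34.2 to 45.0 FPKM (0.40, adjusted p = 0.0146) and HACD2 from 15.6 to 20.6 FPKM (0.42, adjusted p = 0.0291), but both calls were lost after scaling by upper quartile (0.134 and 0.221) or median ratio. TECR, the enzyme of the last reduction, fell from 85.5 to 67.0 FPKM (-0.35, adjusted p = 0.016).

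The desaturases receive electrons from cytochrome b5, and 3 of the 6 cytochrome b5 and reductase genes chosen were listed and tested. Which of them serve the desaturases was not tested. The reductases CYB5R2, CYB5R3 and CYB5R4 were not found under these symbols. CYB5A, the most expressed, rose from a mean of 420 to 593 FPKM (0.51, SE 0.12, adjusted p = 0.0107). This call was lost after scaling by upper quartile (0.29, adjusted p = 0.192) or median ratio (0.23, adjusted p = 0.347). CYB5B fell from 14.1 to 9.61 FPKM (-0.56, adjusted p = 0.0402), a call lost without Control pool 1 (adjusted p = 0.0823). The reductase CYB5R1 measured 26.2 and 30.0 FPKM (0.20, adjusted p = 0.0908).

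In the saturated branch, 2 of 7 genes rose and 1 fell, with a median of 0.09. Beside SCD, the gene that rose was ACACA, the carboxylase that supplies malonyl-CoA to synthesis and elongation, from 2.29 to 5.24 FPKM (1.19, SE 0.19, adjusted p = 0.00193). ACLY, which makes cytosolic acetyl-CoA, had a fold change of -0.08 (adjusted p = 0.666).

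Of the 6 acyl-CoA synthetases tested, 1 rose, with a median of 0.10. This was ACSL4, which prefers arachidonic acid, from 5.61 to 12.5 FPKM (1.2, SE 0.22, adjusted p = 0.00384). ACSL1, the most expressed, measured 918 and 656 FPKM (-0.48, adjusted p = 0.14), and with the pool number as a block its adjusted p was 0.0225. ACSL5 had a fold change of -0.48 (adjusted p = 0.0604), or -0.63 (adjusted p = 0.011) without Control pool 1, and SLC27A5 one of 0.36 (adjusted p = 0.125).

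Peroxisomes shorten the longest chains, a step needed to finish docosahexaenoic acid. Of 11 genes tested, 1 rose and 1 fell, with a median of 0.00. Among those that did not pass, ABCD3, a transporter of the peroxisomal membrane, had a fold change of -0.74 (adjusted p = 0.0727) and was lower in all 4 pools of Steatosis. With the pool number as a block its adjusted p was 0.0162. ACAA1, the thiolase of the last step, had a fold change of -0.22 (adjusted p = 0.164).

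Phospholipid remodelling, which changes the chains of membrane lipids, polyunsaturated and others, had 6 of 11 genes higher and 1 lower, with a median of 0.48. The count covers the whole list and is not a count of enzymes of polyunsaturated chains. After scaling by upper quartile 3 were higher and 1 lower, and after median ratio scaling 2 and 2. LPCAT3, which inserts arachidonic and linoleic acid, measured 13.3, 22.5, 17.0 and 17.7 FPKM in Control and 33.0, 33.1, 34.0 and 31.8 FPKM in Steatosis. Every Steatosis pool was above every Control pool and the spread in Steatosis was small (SD 0.890, n = 4). Its fold change was 0.92 (SE 0.14, adjusted p = 0.00154). MBOAT1 rose by 0.87 on the log2 scale (adjusted p = 0.00511), LPCAT1 by 0.70 (adjusted p = 0.00816) and LPCAT4 by 0.63 (adjusted p = 0.015). Named after their values were seen, to complete these counts, MBOAT2 rose by 1.26 (adjusted p = 0.0205) and LPCAT2 by 0.48 (adjusted p = 0.0276, or 0.0596 without Control pool 1), and AGPAT3 had a fold change of -0.35 (adjusted p = 0.0333). MBOAT2 measured 0.60, 0.17, 0.14 and 0.17 FPKM in Control and 0.64 to 0.81 FPKM in Steatosis. It passed the filter on low values only with its Steatosis libraries, so its place in the count of genes higher rests on its own rise.

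Among 14 regulators of fatty acid and sterol genes, 4 rose and 2 fell, with a median of 0.15. After scaling by upper quartile 2 were higher and after median ratio scaling 1, with 2 lower in each. SREBF1, which encodes the lipogenic sterol regulatory element binding protein, measured 5.43, 11.4, 9.57 and 4.8 FPKM in Control and 14.9, 23.0, 37.4 and 25.6 FPKM in Steatosis. The groups did not overlap, and its fold change was 1.70 (SE 0.33, adjusted p = 0.00454). NR1H3, the liver X receptor alpha, rose from 65.9 to 95.5 FPKM (0.54, SE 0.10, adjusted p = 0.00294), NFYC by 0.45 (adjusted p = 0.00641) and RXRA by 0.37 (adjusted p = 0.0137). The 2 that fell, named after their values were seen, were INSIG1, which holds sterol regulatory element binding proteins in the endoplasmic reticulum (-1.77, SE 0.46, adjusted p = 0.0175), and SREBF2, the sterol branch of the family (-0.62, adjusted p = 0.029).

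**Figure D5:**
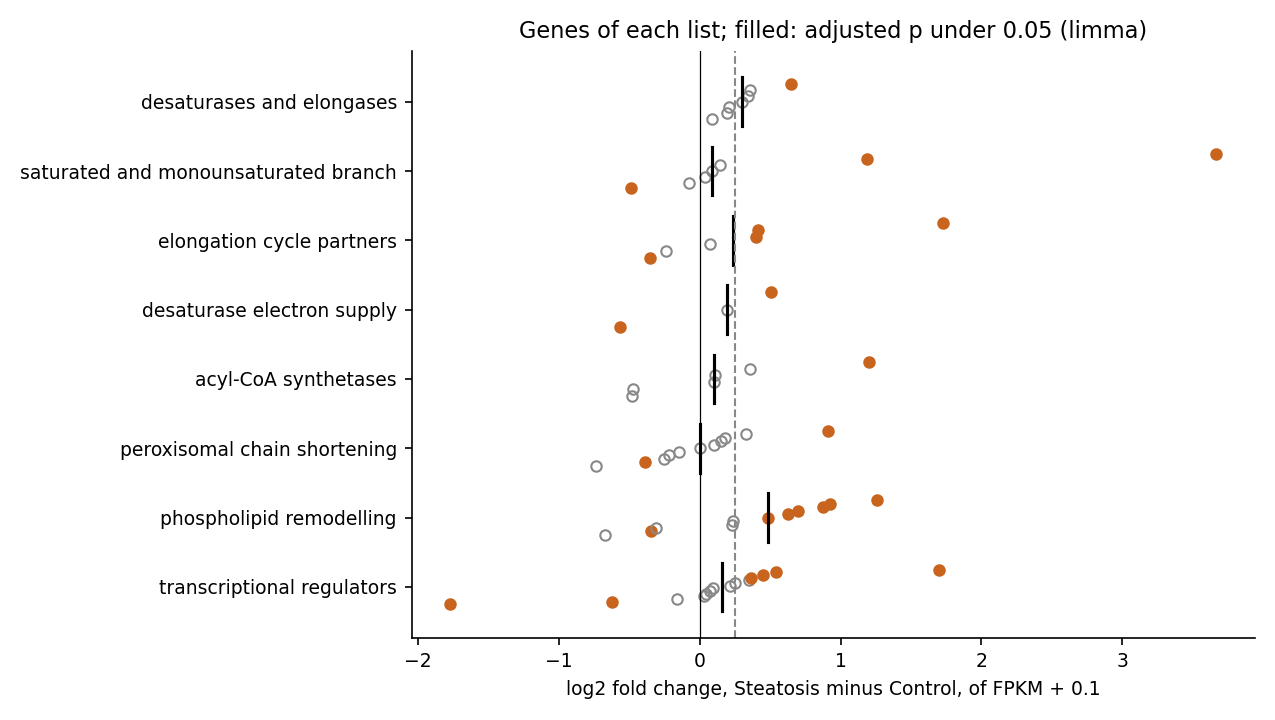
Log2 fold change (horizontal axis, Steatosis minus Control, of FPKM + 0.1) of every tested gene in the desaturase and elongase group and in the 7 lists, with filled points past an adjusted p of 0.05 in limma and a black bar at each list's median. The dashed line is the median of all tested genes, 0.25. The desaturases and elongases have 1 filled point, FADS2 at 0.65, and phospholipid remodelling has 7.

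The 3 FADS genes lie side by side on chromosome 2 of the Sscrofa11.1 assembly, within 139779 bases, and coordinates below are those of RefSeq. FADS3 (gene ID 100518057) spans chr2:9607627-9627352, FADS2 (444997) chr2:9633941-9666666 and FADS1 (444995) chr2:9735425-9747405. Between FADS3 and FADS2 lie 6588 bases, and between FADS2 and FADS1 68758. The elongases are spread over other chromosomes: ELOVL1 (100312969) at chr6:167881357-167886125, ELOVL2 (100153368) at chr7:7651707-7732353, ELOVL5 (100171403) at chr7:46860768-46932945, ELOVL3 (100155434) at chr14:113226589-113230038 and ELOVL7 (100524592) at chr16:39588122-39680273.

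The protein-coding genes within 60 kb of the FADS genes, chosen by position after values were seen, differed among themselves. DAGLA, a lipase that makes an endocannabinoid carrying arachidonic acid, rose from 0.418 ± 0.0877 to 0.963 ± 0.212 FPKM (SD, n = 4; 1.03, adjusted p = 0.00662). RAB3IL1 rose from 2.42 to 3.69 FPKM (0.57, adjusted p = 0.0171) and FEN1, a nuclease of DNA replication, from 2.82 to 3.79 FPKM (0.42, adjusted p = 0.0477). The FEN1 call held in 1 of the 8 fits that left out 1 library, and was lost without Control pool 1 (0.33, adjusted p = 0.102). It was also lost with the pool number as a block (adjusted p = 0.0554). MYRF (0.54, adjusted p = 0.0574) and TMEM258 (0.13, adjusted p = 0.365) did not pass, and BEST1 was listed at 0.02 and 0.01 FPKM and was not tested. Of these 6 genes, 3 rose and BEST1 was not tested, where 26.7% of all tested genes rose. The calls of RAB3IL1 and FEN1 were lost after scaling by upper quartile or median ratio. Levels of the 6 genes ranged from below 1 FPKM to the 63.1 FPKM of TMEM258 in Control.

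The genes with the most similar profile over the 8 libraries were sought for 4 of the enzymes, by the mean absolute difference of log2(FPKM + 0.1) after centring each gene on its own mean. For FADS2 they were CCDC167 (0.1003), QPCT (0.109) and ADGRE1 (0.132), where FADS2 itself deviated from its mean by 0.358 on average. ADGRE1 is also among the macrophage markers below. For FADS1 they were LOC100524737 (0.117), CYP2D25 (0.147) and NDUFAF2 (0.147), beside a deviation of 0.288. For ELOVL2 they were WDR64 (0.137), MBNL3 (0.139) and TMPO (0.140), beside 0.347, and for ELOVL5 DUSP19 (0.0601), GGCX (0.0637) and ALG9 (0.0685), beside 0.228. No desaturase or elongase was among the 3 nearest of another. With 3 places among 13175 tested genes, this does not show that their profiles differ.

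Markers of some cell types also differed between groups, and their levels do not separate the number of cells from the RNA per cell. The counts past an adjusted p of 0.05 below stand beside 26.7% higher and 2.28% lower of all tested genes. Macrophage markers rose in 9 of 12 genes and fell in none, and their summed level was 899 to 1155 FPKM in Control and 1914 to 2426 FPKM in Steatosis. GPNMB made much of that, and the other 11 genes summed to 882 to 1132 FPKM in Control and 1310.4 to 1509 FPKM in Steatosis. CD14 measured 190 to 226 FPKM in Control and 153 to 193 FPKM in Steatosis. TREM2 was at most 0.29 FPKM in Control and at 4.01 to 6.54 FPKM in Steatosis, so it passed the filter on low values only with its Steatosis libraries. Hepatocyte markers rose in 1 of 10 and fell in 2. The summed cholangiocyte markers went from 10.1 to 24.6 FPKM in Control to 93.0 to 234 FPKM in Steatosis, with 1 of 5 genes past the limit. Most of that sum in Steatosis was SPP1 (74.4 to 227 FPKM), which macrophages also make. The summed endothelial markers went from 60.7 to 70.4 FPKM to 82.99 to 108 FPKM, with 2 of 7 (28.6%) past the limit, near the share of all genes. Stellate cell markers rose in 2 of 9 and fell in 1, T and NK cell markers rose in 1 of 6, and neutrophil markers in 1 of 4. B cell markers fell in 3 of 4, and red blood cell markers were past the limit in 0 of 3. Adipose markers rose in 2 of 5, with a sum of 116 FPKM in Control pool 1, 31.7 to 34.5 FPKM in the other Control pools and 85.5 to 95.2 FPKM in Steatosis. FABP4 (41.9 to 53.6 FPKM) and LPL, which macrophages also make, were among the highest of these in Steatosis, while the adipocyte hormone ADIPOQ was at most 0.04 FPKM there. LPL measured 6.59 FPKM in Control pool 1 and 0.05 to 0.27 FPKM in the other Control pools. It too passed the filter only with its Steatosis libraries. The part of these shifts in the differences of FADS2 and of the genes above was not tested.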

How the data were processed

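Poly-A RNA of 8 pools of liver RNA was sequenced in paired reads of 100 bp. Per the labels and the study's methods, the authors filtered reads, mapped them with HISAT2 2.0.4 (genome Sus scrofa 11.1) and extended the reference with coding transcripts newly assembled by StringTie. Bowtie2 2.2.5 and RSEM 1.2.12 then gave the expression estimates. The deposited values are FPKM, with no scaling between libraries stated. Whether counting used strand is not given in the sources used here, so overlapping genes may share reads. Fold changes and FDR of comparisons made by the authors between single pools were not used, and only transcript lengths were taken from 1 of those files.

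FPKM was compared as deposited, on log2(FPKM + 0.1), with limma 3.58.1 in R 4.3.3 (mean-variance trend, group as the only term, Benjamini-Hochberg adjustment), and the fit was tested on simulated data. Python 3.11.15 was used for the rest, with scipy 1.17.1, pandas 2.3.3, numpy 2.4.6 and, for plots, matplotlib 3.10.9. Exact permutation tests were two-sided. Coordinates are from RefSeq, matched by gene ID for 17778 of 18103 entries, and the other 325 are new transcripts.

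Members, the 7 pathway lists and the 12 marker lists were chosen with earlier results of these data known. All members were named, with up to 4 genes of each list by smallest adjusted p, SCD, ELOVL6, SREBF1 and LPCAT3, the 3 nearest profiles of 4 enzymes, and the exceptions stated. Some genes that this rule names are not reported here.

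Libraries were treated as paired by pool number in the block alternative. The study does not state this pairing, and deviations from group means correlated at 0.16, 0.35, 0.32 and 0.25 between pools of the same number. Read numbers were not analysed, and precision is given as the spread between pools. Alternatives were 3 scalings, 2 filters, a pseudocount of 1, no trend, the pool number as a block and each library left out.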

Additional observations from a re-analysis of the deposited data

Results flagged for a closer look

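Of 98 groups of 4 libraries examined for the genes and ratios named, 7 had 1 library far from the other 3, where chance gives about 1 in 20. ELOVL3 was listed at 0.04 FPKM in Steatosis pool 1 and at 0 in the other Steatosis pools. The log2 ratio of ELOVL6 to ELOVL5 was 0.7985 in Steatosis pool 2, against 0.13 to 0.24 in the other pools of that group. INSIG1 measured 47.7 FPKM in Steatosis pool 1, against 19.7 to 22.7 FPKM. MBOAT2 measured 0.60 FPKM in Control pool 1, the library with high muscle and stomach markers, against 0.14 to 0.17 FPKM. ACSL1 measured 1344 FPKM in Control pool 2, against 750.1 to 791 FPKM. ACAA1 measured 176.2 FPKM in Control pool 4, against 131 to 137 FPKM, and CYB5R1 32.0 FPKM in Steatosis pool 2, against 29.2 to 29.5 FPKM.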

How the results depend on the processing

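The count of desaturases and elongases past an adjusted p of 0.05 was 1 as reported (FADS2) and 0 under upper quartile scaling, median ratio scaling, no filter, or no trend, and 0 to 1 when 1 library was left out. FADS2 kept a positive fold change in all 16 alternatives (0.37 to 0.78). The count at the limits of the study was 0 in every alternative. In the pathway lists, genes higher numbered 18 as reported, 10 under upper quartile and 8 under median ratio scaling. Genes lower numbered 7 as reported, 4 under a common sum, 11 under upper quartile, 14 under median ratio scaling, 3 without trend and 0 to 6 with 1 library left out, 0 being without Steatosis pool 4. Under upper quartile and median ratio scaling, respectively, these estimates turned negative: ELOVL1 (-0.00912 and -0.0687), ELOVL2 (-0.135 and -0.195), ELOVL5 (-0.0274 and -0.0873), CYB5R1 (-0.0236 and -0.0834) and TMEM258 (-0.0946 and -0.155). Both scalings bring the median of all genes near 0 (0.04 and -0.02). With 1 library left out ELOVL2 ranged from -0.112 (without Steatosis pool 2) to 0.268, and was also negative without Control pool 4 (-0.0336). The pool number as a block left the calls of FADS2 (adjusted p = 0.0451) and ELOVL6 (0.0448) in place, and changed no call of a desaturase or elongase. It added ACSL1 and ABCD3 as lower, ended FEN1 and changed no other call of a gene named. With 1 library left out, the call held in 1 of 8 fits for FEN1, 2 for CYB5B and AGPAT3, 3 for HACD2 and SREBF2, 4 for LPCAT2, 6 for RAB3IL1 and 7 for TECR, INSIG1 and MBOAT2. It held in all 8 for SCD, ACACA, HACD4, HACD3, CYB5A, ACSL4, LPCAT3, MBOAT1, LPCAT1, LPCAT4, NR1H3, SREBF1, NFYC, RXRA and DAGLA. Upper quartile and median ratio scaling both ended the calls of HACD3, HACD2, CYB5A, LPCAT4, LPCAT2, MBOAT2, NFYC, RXRA, RAB3IL1 and FEN1, and median ratio scaling also those of LPCAT1 and NR1H3 (adjusted p up to 0.547, for RXRA). Both added ACSL5, ABCD3 and ACAA1 as lower, and median ratio scaling also ACSL1 and ACLY. Leaving out 1 library took the difference of SCD to FADS2 from 2.545 to 3.40, of ELOVL6 to ELOVL5 from -0.84 to -0.57, of FADS2 to FADS1 from 0.16 to 0.44 and of ELOVL2 to ELOVL5 from -0.33 to 0.05. The precision is that of 4 pools a group.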
